A study of Mus musculus with 18 samples.

Results

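Genes of the cell cycle were followed in the livers of Hmgn1 knockout and wild-type male mice. The set is a list of 43 genes given by name, with no threshold on a measured value. Of these, 42 had at least 1 probe set that the platform annotation gives to that gene alone, out of 18193 genes in the series with such a probe set. Each gene was represented by its probe set of highest mean signal over the 18 arrays. Ccnb1 was not analysed here. A level filter, described below, left 34 of the 42 genes for testing.

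A cell that enters the cycle makes D-type cyclins, whose kinases Cdk4 and Cdk6, joined later by E-type cyclins with Cdk2, release E2F factors from the retinoblastoma proteins. E2F factors then raise the genes of replication, and a later wave of transcription, read through short elements named CHR and CCAAT, raises the genes of G2 and mitosis. Inhibitors such as the Cdkn1b product hold the kinases back. Hepatocytes of the adult liver are mostly quiescent, those of young mice still divide, and the liver returns to the cycle after injury. N-nitrosodiethylamine (DEN) is a carcinogen that liver enzymes turn into a DNA-alkylating agent.

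The 6 groups of 3 arrays were Hmgn1-/- (KO) and Hmgn1+/+ (WT) livers at 4 weeks without an injection, KO and WT livers labelled 12 weeks with a saline injection, and KO and WT livers labelled 12 weeks with DEN, at 10 µg per g of body weight. Injections were given at an age of 4 weeks, and whether 12 weeks is the age or the time since injection is not settled by the labels. Hmgn1 encodes a protein that binds nucleosomes. Both genotypes came from heterozygous crosses and were then kept as separate homozygous lines, so that genotype and line cannot be told apart. Nothing in the labels ties an array to its own animal, so a p-value here covers only the spread between arrays, which may be technical. Whole liver was used, in which fewer cells of a type and less RNA per cell cannot be told apart.

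Signals are the deposited linear values, scaled so that the trimmed mean of each array was 150. They have no read depth, and the number of arrays limits the precision. The 6 saline arrays stood apart, with a highest signal of 16720 to 21752 where the other 12 arrays reached 46967 to 60173, and with a mean of 8.22 to 8.63 in log2 over 18 hybridization-control probe sets, against 10.64 to 11.36. A comparison with saline arrays therefore cannot be told apart from this difference. Hepatocyte markers were lower on them too: the summed signal of 8 genes was 103614 to 107403 in KO and 92556 to 117539 in WT with saline, against 217879 to 235034 in KO and 205582 to 225686 in WT at 4 weeks. None of those 8 markers was near the detection floor. The Gapdh 3′ to 5′ ratio, which rises with RNA degradation, was highest in KO replicate 1 (1.70) and WT replicate 2 (2.19) at 4 weeks. Hmgn1 itself had signals of 6864, 6666.9 and 6502.8 in KO and 6083.5, 7947.8 and 6724.1 in WT livers at 4 weeks, and none of its 3 tested probe sets was called in any condition. Where the deletion lies in the gene is not given, so this checks no label.

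Promoters show which of the known elements the genes carry. RefSeq promoters of build GRCm38.p6, with 250 bases before and 50 after the annotated start, matched 35 of the 43 genes. Shown are 6 of them: Cdk2 and Cdkn1b, the genes that passed the test between genotypes; the paralogs Cks2 and Cks1b, called in opposite directions with DEN in KO livers; and Ccnb2 and Plk1, mitotic genes near the detection floor in 3 and 4 of the 6 groups. Capitals mark TTTGAA (the CHR element), CCAAT, and the E2F words TTTGGCGC, TTTCCCGC, TTTGCCGC and TTTCGCGC, each searched on both strands. Matches of different motifs did not overlap in these sequences.
Cdk2 (chr10:128705002-128705301, minus strand): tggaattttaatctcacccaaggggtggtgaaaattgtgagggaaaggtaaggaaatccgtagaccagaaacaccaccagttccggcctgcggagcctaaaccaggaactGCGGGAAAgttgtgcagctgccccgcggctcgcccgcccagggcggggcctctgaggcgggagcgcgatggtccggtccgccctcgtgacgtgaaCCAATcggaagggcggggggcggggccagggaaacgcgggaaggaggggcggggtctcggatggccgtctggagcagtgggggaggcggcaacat
Cdkn1b (chr6:134920151-134920450, plus strand): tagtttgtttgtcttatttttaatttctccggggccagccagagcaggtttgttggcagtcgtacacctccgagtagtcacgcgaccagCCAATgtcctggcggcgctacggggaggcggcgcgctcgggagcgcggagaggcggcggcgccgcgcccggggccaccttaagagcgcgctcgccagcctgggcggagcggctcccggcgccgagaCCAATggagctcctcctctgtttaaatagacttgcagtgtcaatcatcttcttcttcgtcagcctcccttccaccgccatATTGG
Cks2 (chr13:51644982-51645281, plus strand): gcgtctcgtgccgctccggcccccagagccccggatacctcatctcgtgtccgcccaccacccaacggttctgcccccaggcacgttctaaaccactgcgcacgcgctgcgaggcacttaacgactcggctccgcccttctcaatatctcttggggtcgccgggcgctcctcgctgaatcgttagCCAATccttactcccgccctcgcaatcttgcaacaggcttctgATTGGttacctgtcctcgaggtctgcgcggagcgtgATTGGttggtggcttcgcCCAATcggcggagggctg
Cks1b (chr3:89418242-89418541, minus strand): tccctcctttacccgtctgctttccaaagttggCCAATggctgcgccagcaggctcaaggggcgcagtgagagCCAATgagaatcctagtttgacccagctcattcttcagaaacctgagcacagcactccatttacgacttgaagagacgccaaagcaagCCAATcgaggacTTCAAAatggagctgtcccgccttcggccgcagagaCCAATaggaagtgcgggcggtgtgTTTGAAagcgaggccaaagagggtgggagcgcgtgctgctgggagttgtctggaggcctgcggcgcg
Ccnb2 (chr9:70421505-70421804, minus strand): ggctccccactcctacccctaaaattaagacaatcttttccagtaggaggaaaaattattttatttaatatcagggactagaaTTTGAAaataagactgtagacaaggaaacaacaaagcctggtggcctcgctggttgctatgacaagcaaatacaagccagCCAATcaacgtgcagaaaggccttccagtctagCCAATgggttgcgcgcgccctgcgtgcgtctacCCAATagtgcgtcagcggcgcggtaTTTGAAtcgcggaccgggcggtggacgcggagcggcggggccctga
Plk1 (chr7:122159185-122159484, plus strand): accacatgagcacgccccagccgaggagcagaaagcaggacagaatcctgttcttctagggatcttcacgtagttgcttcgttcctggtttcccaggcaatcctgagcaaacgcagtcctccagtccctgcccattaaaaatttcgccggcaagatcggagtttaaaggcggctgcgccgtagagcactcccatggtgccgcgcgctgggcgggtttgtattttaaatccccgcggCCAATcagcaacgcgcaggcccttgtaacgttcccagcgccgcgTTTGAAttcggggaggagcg
Cdk2 held 1 E2F word and 1 CCAAT, whereas Ccnb2 held 2 CHR words and 3 CCAAT. Cks1b and Cks2 held 4 CCAAT each, and 2 CHR words were found in Cks1b and 0 in Cks2. Over the matched genes, CHR was present in 13 of 35 (37.1%) and in 17.9% of all 32851 promoters of this length in the table. CCAAT was present in 25 of 35 (71.4%) and in 37.4% of all promoters, and an E2F word in 7 of 35 (20%) and in 2.26%. The E2F words were in Cdk1, Cdk2, Mcm3, Mcm5, Mcm6, Mcm7 and Cdt1. A word is a match of letters, not a bound site. Among the 10 matched genes that were near the floor in a group, 6 held CHR and 0 an E2F word; among the 24 that were above it in every group, 7 held CHR and 7 an E2F word.

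How many genes lay near the detection floor differed by role. The filter was the 40th percentile of the mean of log2(signal + 16) over all probe sets that are not controls, which is 4.98 and corresponds to a signal of 15.5; "near the floor" means below it. All 9 genes of replication licensing and the fork were above it in every group, as were the 4 inhibitors and cofactors. Of the 9 genes of the spindle, the checkpoint and the exit from mitosis, 7 were near the floor over the 18 arrays and were not tested: Aurkb and Plk1, mitotic kinases; Bub1 and Bub1b, of the spindle checkpoint; Ube2c, a ubiquitin-conjugating enzyme of the anaphase-promoting complex; Kif11, a spindle motor; and Birc5, survivin. Tyms, thymidylate synthase, was the other gene not tested. Mki67, Ccnb2, Ccne1 and Foxm1 were tested but lay near the floor in 1, 3, 1 and 2 groups.

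**Figure D1:**
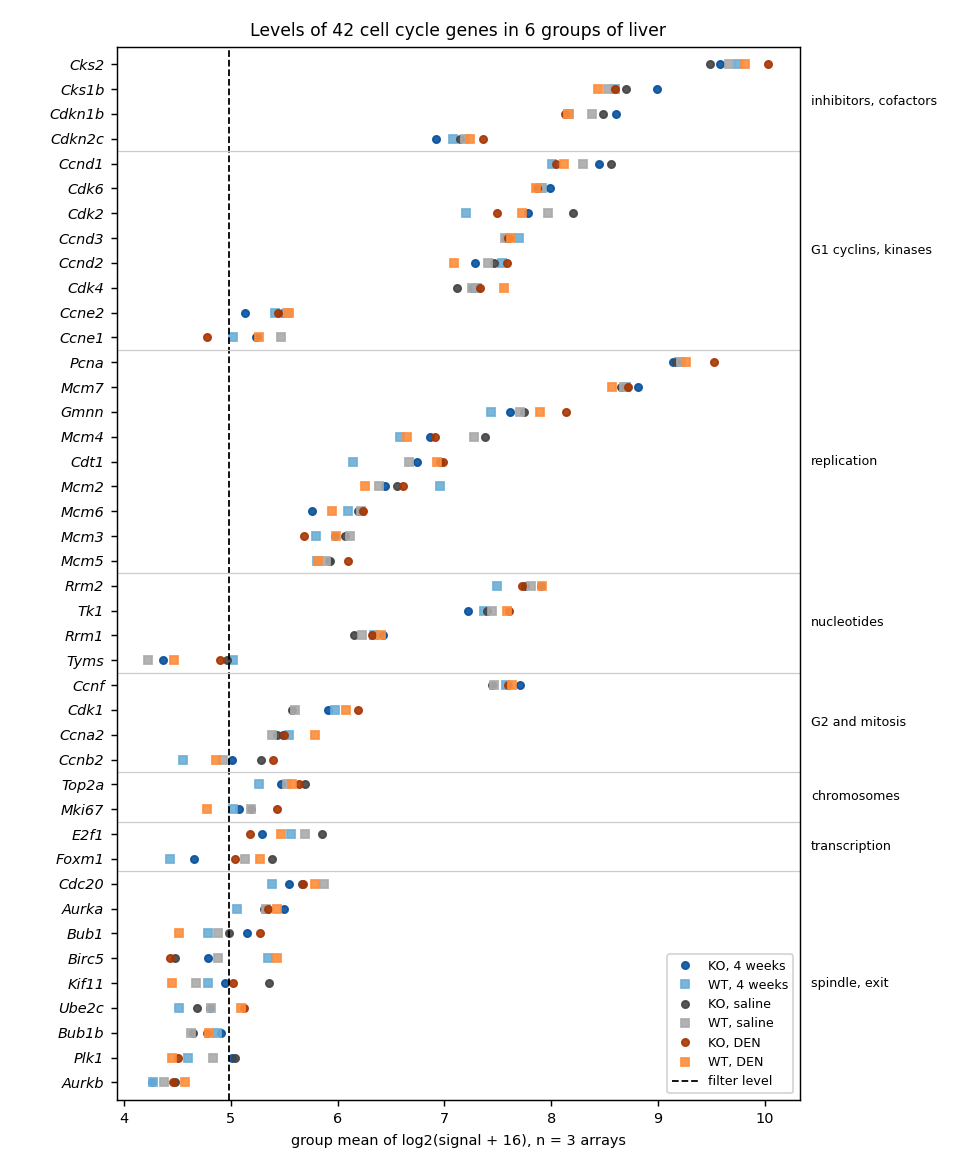
Group means of log2(signal + 16) of the 42 measured genes, ordered by role (names at the right); circles are KO and squares WT groups, n = 3 arrays each, and the dashed line is the filter level of 4.98. The replication genes lie right of the line in every group, and 7 of the 9 genes of the spindle and exit from mitosis lie near it or left of it; levels of different genes come from different probe sets and are not comparable.

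Mki67 and Top2a, both used as markers of dividing cells, gave signals of at most 41.1 on any array. Mki67, a protein of dividing cells' chromosomes, had signals of 19.8, 12.2 and 22.1 in KO and 10.5, 21.8 and 18.4 in WT livers at 4 weeks, 10.5, 19.3 and 36.2 in KO and 24.3, 15.2 and 22.8 in WT with saline, and 34.4, 27.2 and 20.8 in KO and 2.5, 24.1 and 11.6 in WT with DEN. Top2a, the topoisomerase that untangles replicated DNA, had 25.8, 41.1 and 20.4 in KO and 22.2, 11.3 and 38.6 in WT at 4 weeks, 30.7, 36.2 and 40.8 in KO and 29.7, 32.5 and 27.9 in WT with saline, and 40.9, 38.5 and 24.1 in KO and 26.6, 31.9 and 37.1 in WT with DEN. For both genes the KO and WT ranges overlapped in each condition. Cdk1, the kinase that drives mitosis, had 25.3, 61.3 and 52.3 in KO and 51.3, 47.3 and 42.6 in WT at 4 weeks, 30.6, 42.8 and 23.7 in KO and 54.2, 23.8 and 24.9 in WT with saline, and 81.7, 44.6 and 49.2 in KO and 61.8, 43.8 and 49.9 in WT with DEN. Its KO and WT ranges overlapped in every condition. Ccnf, the F-box cyclin F, had 205.8, 185.7 and 189.8 in KO and 221.9, 145.6 and 164.2 in WT at 4 weeks, 183.4, 149 and 145.9 in KO and 172.1, 161.1 and 148.4 in WT with saline, and 182.2, 207.1 and 148.9 in KO and 162.5, 164.6 and 224.8 in WT with DEN. Ccna2 (12.9 to 55.9 over the 18 arrays) and Ccnb2 (0.9 to 33.6), cyclins of S phase and mitosis, had no called difference.

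Among the spindle genes, Cdc20, an activator of the anaphase-promoting complex, had 31.1, 28.8 and 32.1 in KO and 17.9, 28.4 and 32.1 in WT at 4 weeks, 32, 43.4 and 29.6 in KO and 52, 35.7 and 40.8 in WT with saline, and 43.9, 32.9 and 29.9 in KO and 51, 28.4 and 40.4 in WT with DEN. Aurka, a kinase of the spindle poles, had 23.7, 35.3 and 29.5 in KO and 10.5, 24.8 and 18.3 in WT at 4 weeks, 29.6, 27.6 and 15.5 in KO and 28.5, 28.9 and 16.8 in WT with saline, and 51.5, 11.3 and 20.6 in KO and 48.6, 21.9 and 16.9 in WT with DEN. Neither gene separated the genotypes in any condition. The untested genes of this role ranged over the 18 arrays from 0.4 to 11.1 (Aurkb), 1 to 27.8 (Plk1), 3.9 to 22.3 (Bub1b), 0.8 to 27.9 (Bub1), 2.3 to 50 (Ube2c), 0.6 to 27 (Kif11) and 1.1 to 43.6 (Birc5). No difference was tested at these signals.

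The factors that drive transcription varied widely within groups. E2f1 had signals of 18.5, 36.1 and 17.7 in KO and 35.3, 34.8 and 24.4 in WT at 4 weeks, 52.1, 48.7 and 27.5 in KO and 41.4, 28.6 and 38.4 in WT with saline, and 22.4, 4.8 and 43.6 in KO and 28.4, 24.4 and 32.6 in WT with DEN. Foxm1, which raises mitotic genes, had 23.3, 5.2 and 3.2 in KO and 3.5, 4.1 and 9.4 in WT at 4 weeks, 20, 27.2 and 30.8 in KO and 5, 25.8 and 33.5 in WT with saline, and 3.6, 32 and 21.6 in KO and 38.7, 32.2 and 5.9 in WT with DEN. The WT DEN arrays of Foxm1 alone ran from 5.9 to 38.7, where all 18 arrays ran from 3.2 to 38.7.

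Of the 4 genes that supply nucleotides, 3 were tested. Rrm2, a subunit of ribonucleotide reductase, had 223.5, 225.7 and 220.2 in KO and 165.6, 166.2 and 162 in WT at 4 weeks, 206.2, 209 and 185 in KO and 237.9, 170.1 and 224.3 in WT with saline, and 237.3, 155.4 and 204.5 in KO and 301.1, 171.7 and 219.6 in WT with DEN. Its groups did not overlap at 4 weeks, yet the difference missed the threshold over all probe sets. Tk1, thymidine kinase, had 118.8, 146.6 and 134 in KO and 148.8, 130.8 and 170.9 in WT at 4 weeks, 163.1, 147.1 and 149.2 in KO and 174.6, 142.8 and 157.7 in WT with saline, and 194.9, 186.4 and 156.8 in KO and 208.7, 126.3 and 205.2 in WT with DEN. Its KO and WT ranges overlapped in each condition. Rrm1, the other reductase subunit, ranged from 34 to 86.2 over the 18 arrays.

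Mcm7, a subunit of the MCM helicase, had 443, 428.2 and 426.6 in KO and 385.7, 431.5 and 382.8 in WT at 4 weeks, 384.1, 374.4 and 404.7 in KO and 421, 387.8 and 374.4 in WT with saline, and 409.5, 408.7 and 394.8 in KO and 383.5, 339 and 372.6 in WT with DEN. Cdk6, a partner of D-type cyclins, had 225.7, 241.6 and 245.2 in KO and 237.7, 201.1 and 236.3 in WT at 4 weeks, 210.5, 241.4 and 206.4 in KO and 232.6, 203.6 and 236.1 in WT with saline, and 215.9, 187.2 and 252.9 in KO and 260.4, 199.5 and 191.9 in WT with DEN. Mcm7 ranges of KO and WT did not overlap with DEN, but neither gene had a called difference at these probe sets. Ccnd3 (153 to 248.4), Cdk4 (117 to 212.3), Ccne2 (15.7 to 45.4), Ccne1 (7.2 to 35.6), Cdkn2c (95.1 to 185.4), Mcm3 (29.2 to 60.8), Mcm5 (28.8 to 64.4) and Mcm6 (31.5 to 70.7) were not called in any comparison either. In all, 25 of the 34 tested genes had no called difference in any of the 12 comparisons, and the other 9 had 18. Mcm2 was led by 1 array, with 224.4 on WT replicate 2 at 4 weeks, the array of the highest Gapdh ratio, and 41 to 109.6 on the other 17.

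The comparison of genotypes at 4 weeks asks how uninjected livers differ. Cdk2 and Cdkn1b rose in KO livers, and the other 32 tested genes did not pass the test. A call is an adjusted p under 0.05 in limma over 27022 probe sets. The 2 calls among 34 genes (5.88%) stand beside 2.26% of all tested probe sets. Cdk2, the kinase that E-type and A-type cyclins activate, had signals of 232.6, 186.1 and 195.2 in KO and 115.7, 129.3 and 149.9 in WT livers at 4 weeks. Every KO array was above every WT array, and the log2 difference was 0.58 (SE 0.14, n = 3 arrays each, limma adjusted p = 0.0265). Cdkn1b, the inhibitor p27 of Cdk2 complexes, had 391.3, 369 and 364.8 in KO and 269.9, 243.2 and 305.5 in WT. The ranges again did not overlap, with a log2 difference of 0.44 (SE 0.11, n = 3 each, limma adjusted p = 0.0445). Cks1b, the cofactor with which the SCF ubiquitin ligase marks p27 for destruction, had 489.9, 479.9 and 513.4 in KO and 359.1, 408.4 and 352 in WT. Cdt1, which loads the MCM helicase at origins, had 90.5, 92.3 and 89.8 in KO and 53.4, 64.8 and 47.6 in WT. Neither passed the test, although the KO and WT ranges of each gene did not overlap. How often the ranges of all probe sets lay apart was not counted. The members' median log2 difference was 0.11, against 0.02 over all tested probe sets, and for 30 of 34 genes the 95% interval lay within 1 log2 unit of 0.

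Macrophage and Kupffer cell markers moved with this comparison: 4 of 12 were called lower in KO, and 12 of 12 were negative. The list's median log2 difference was -0.55, and its summed signal was 4517 to 4989 in KO and 6874 to 7421 in WT livers at 4 weeks. Stellate cell and fibroblast markers were lower too, with 1 of 8 called and 7 of 8 negative (median log2 difference -0.30, summed signal 3664 to 3777 in KO and 4972 to 5140 in WT). No marker of either list was near the floor, and their part in the result was not tested. The Cdk2 call was lost in 5 of 17 other settings and that of Cdkn1b in 10 of 17, among them those without the 6 saline arrays (adjusted p 0.0893 for Cdk2 and 0.145 for Cdkn1b) and without the 2 arrays of high Gapdh ratio (log2 difference 0.48 and adjusted p 0.183 for Cdk2, 0.34 and 0.269 for Cdkn1b). The Cdk2 call was also lost without KO replicate 1 or 3 or WT replicate 1 or 2 (adjusted p up to 0.136), and that of Cdkn1b without any array but WT replicate 3 (adjusted p up to 0.151).

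**Figure D2:**
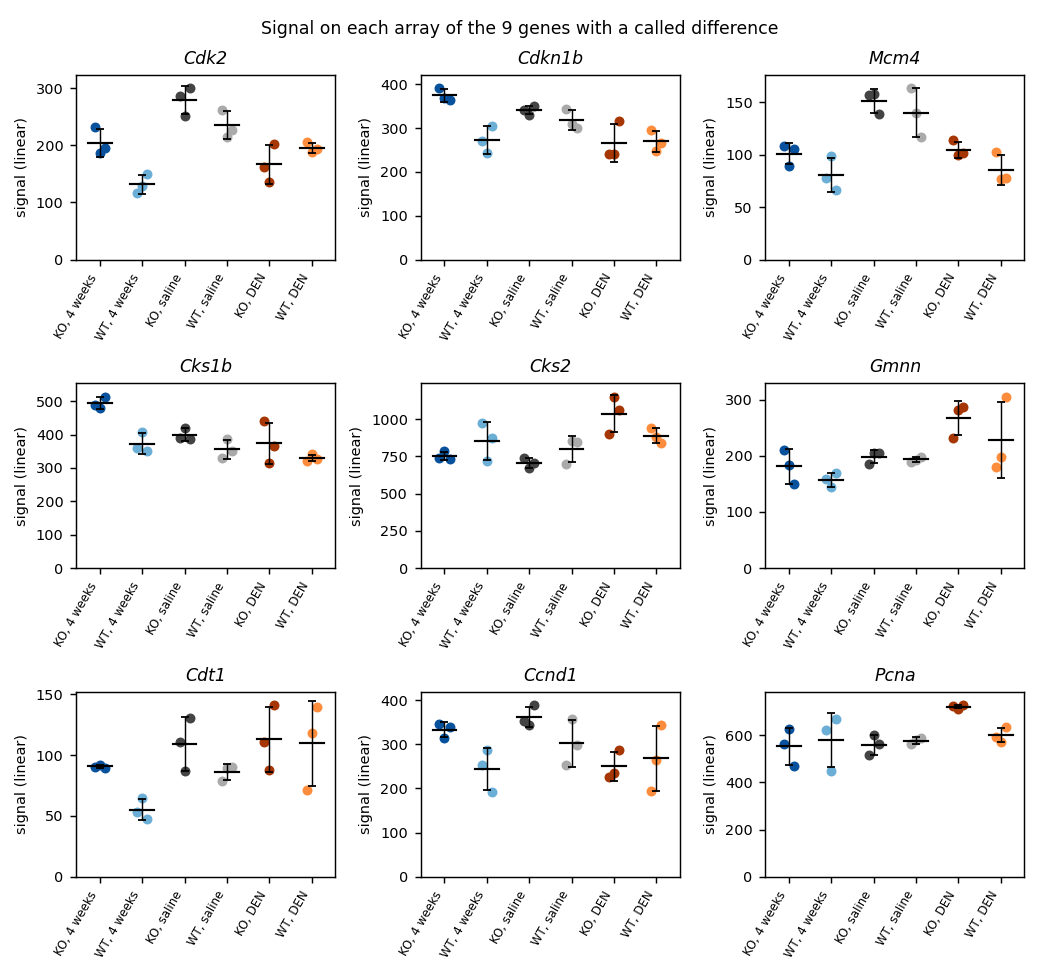
Linear signal of the 9 genes with a called difference in any comparison; points are arrays, horizontal bars the group mean and error bars the SD (n = 3), with KO left of WT in each condition. Cdk2 is higher in KO than in WT livers at 4 weeks on every array, and Mcm4 is higher on the saline arrays of either genotype than at 4 weeks.

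After saline, 0 of 34 genes were called between KO and WT livers, beside 0.0111% of all probe sets. At the looser threshold of an unadjusted limma p under 0.05 there were 0 genes. The log2 differences ran from -0.22 to 0.35 with a median of -0.01, and 33 of 34 intervals lay within 1 log2 unit of 0. Cdk2 had 285.6, 251.8 and 300 in KO and 262.3, 215 and 227.7 in WT livers with saline. Cdkn1b had 342.2, 331.2 and 350.2 in KO and 344.3, 308.8 and 301.6 in WT. The ranges of both genes overlapped.

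After DEN, 0 of 34 genes were called between KO and WT livers, beside 0.0074% of all probe sets. At the looser threshold of an unadjusted limma p under 0.05 there were 3 genes. The share of all probe sets at that threshold was not counted. The 3 were Mki67, given above, Ccnd2 and Pcna. Ccnd2, cyclin D2, had signals of 235, 151.7 and 153.6 in KO and 126.2, 122.9 and 110.8 in WT livers with DEN. Pcna, the sliding clamp of replication and repair, had 723.7, 713.5 and 727.4 in KO and 593.6, 573.4 and 633.3 in WT. Ranges of Ccnd2 and Pcna did not overlap, but neither gene passed the test over all probe sets. Cdk2 had 161.7, 135.6 and 202.6 in KO and 206, 188.6 and 193.2 in WT. The members' median log2 difference was 0.02, and 30 of 34 intervals lay within 1 log2 unit of 0.

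**Figure D3:**
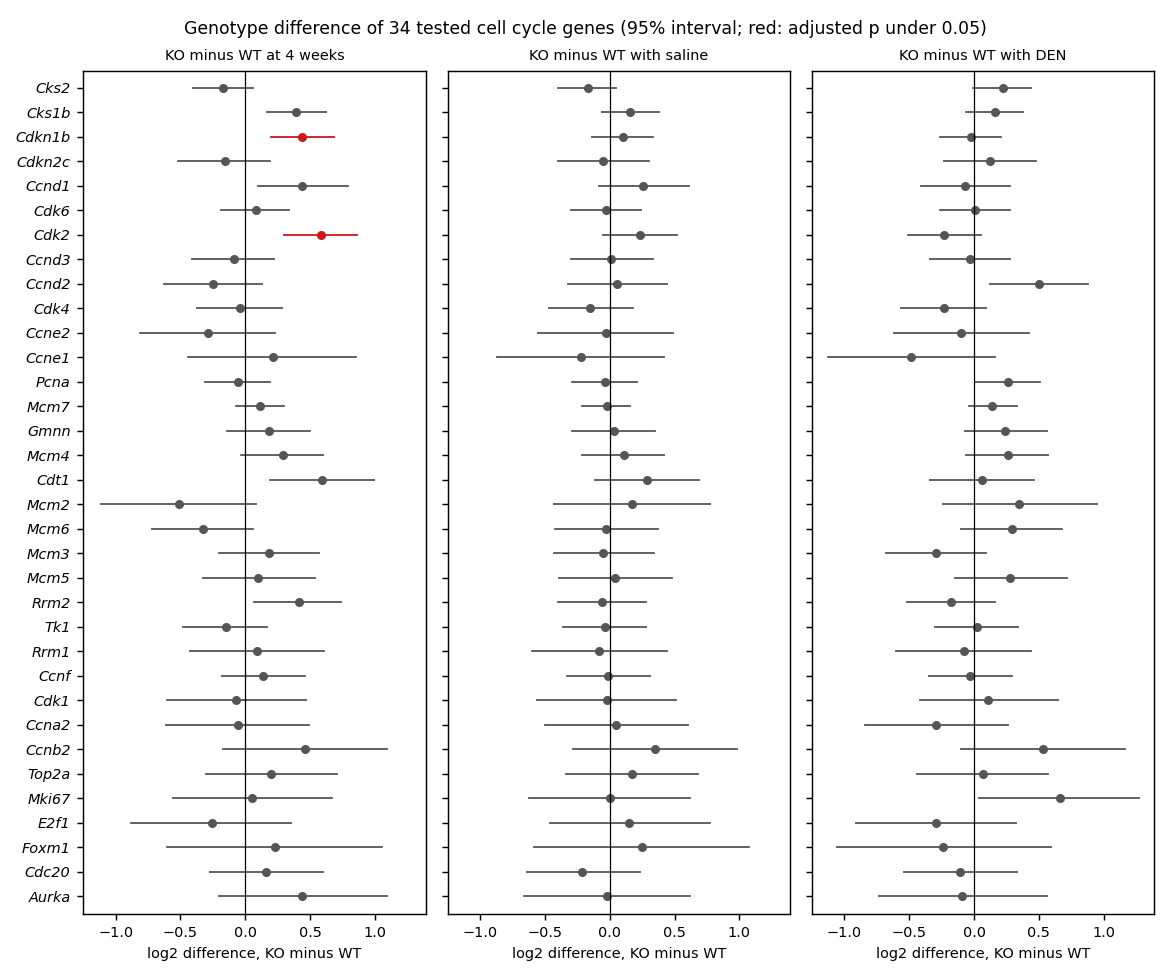
Log2 difference of KO minus WT for the 34 tested genes at 4 weeks, with saline and with DEN; points are fitted differences, lines their 95% intervals (n = 3 arrays per group), and red marks an adjusted p under 0.05. Cdk2 (0.58) and Cdkn1b (0.44) at 4 weeks are the red ones.

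Whether the genotype difference itself depended on the condition was tested with 3 interaction contrasts. None of the 34 genes was called in them. Of all probe sets, 0.0037% were called for saline against 4 weeks, 0.762% for DEN against 4 weeks and 0% for DEN against saline. At the looser threshold of an unadjusted limma p under 0.05 there were 1, 8 and 2 genes, in that order. The share of all probe sets at that threshold was not counted. Cdk2 came closest, chosen here after its value was seen, with a KO minus WT difference that was lower with DEN than at 4 weeks by -0.81 in log2 (95% interval -1.21 to -0.41, limma adjusted p = 0.05025). For 13 of the 34 genes that interval reached past 1 log2 unit, so a difference in response of that size lay within the error of these arrays.

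Saline livers were set against livers at 4 weeks to give the change without DEN. In KO livers Mcm4 rose, and in WT livers Cdk2 and Mcm4 rose; no gene of the set fell. The call in KO is 1 of 34 (2.94%), beside 9.94% of all probe sets, and those in WT are 2 of 34 (5.88%), beside 8.26%. Mcm4, another helicase subunit, had 157.3, 157.7 and 138.3 with saline and 108.1, 89.5 and 105.3 at 4 weeks in KO, and 163.3, 139.5 and 117.2 with saline and 77.3, 98.7 and 66.1 at 4 weeks in WT. The saline arrays lay above the 4-week arrays in both genotypes, by 0.52 in log2 in KO (SE 0.15, limma adjusted p = 0.0332) and by 0.69 in WT (SE 0.15, limma adjusted p = 0.00498). Cdk2 in WT had 262.3, 215 and 227.7 with saline and 115.7, 129.3 and 149.9 at 4 weeks, without overlap, a log2 difference of 0.77 (SE 0.14, limma adjusted p = 0.00072). In KO the Cdk2 arrays did not overlap either, at 285.6, 251.8 and 300 with saline and 232.6, 186.1 and 195.2 at 4 weeks, but the gene was not called. After quantile normalization the 2 WT calls held (0.70 with adjusted p 0.00357 for Cdk2 and 0.62 with 0.016 for Mcm4), and Mcm4 in KO did not (0.46, adjusted p 0.0622). Mcm4 in KO also lost its call without any 1 of the 6 arrays (adjusted p 0.0543 to 0.127), whereas both WT calls held without each array in turn; the mean of all its probe sets gave 0.41 for Cdk2 in WT. The other tested Mcm4 probe set differed by 0.18 in KO and 0.20 in WT and was not called. The hepatocyte markers fell in this comparison, with 8 of 8 called in KO (median log2 difference -0.96). In WT 7 of 8 were called and 8 of 8 were negative (-0.93). The part of these markers in the result was not tested.

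DEN livers against livers at 4 weeks gave 4 of 34 genes in KO (11.8%), beside 8.24% of all probe sets, and 2 of 34 in WT (5.88%), beside 4.4%. The DEN livers were also labelled 12 weeks and had been injected, and the 4-week livers had not. DEN, age and injection therefore cannot be told apart in any comparison of DEN livers with 4-week livers. In KO livers Cks2 and Gmnn rose while Cdkn1b and Cks1b fell. In WT livers Cdk2 and Cdt1 rose. Cks2, a small protein that binds cyclin-dependent kinases, had signals of 903.6, 1150.5 and 1059.1 with DEN and 741.2, 783.9 and 731.4 at 4 weeks in KO. All DEN arrays were higher, by 0.45 in log2 (SE 0.11, limma adjusted p = 0.0155). Its paralog Cks1b had 439.5, 315.7 and 364.9 with DEN and 489.9, 479.9 and 513.4 at 4 weeks in KO. All DEN arrays were lower, with a log2 difference of -0.40 (SE 0.11, limma adjusted p = 0.024). Cdkn1b had 241.3, 241.4 and 317.3 with DEN and 391.3, 369 and 364.8 at 4 weeks in KO, without overlap (-0.48, SE 0.11, limma adjusted p = 0.0135). Gmnn, geminin, which blocks Cdt1 after replication has begun, had 232, 281.4 and 286.5 with DEN and 211, 183 and 149.4 at 4 weeks in KO. Its DEN arrays were all higher, by 0.53 in log2 (SE 0.15, limma adjusted p = 0.0367). In WT livers Gmnn was not called, yet its ranges did not overlap either. The WT signals were 180.6, 197.5 and 304.9 with DEN and 157.7, 144.7 and 168.7 at 4 weeks.

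In WT livers, Cdt1 had 71.3, 118.6 and 139.4 with DEN and 53.4, 64.8 and 47.6 at 4 weeks. The DEN arrays were all higher but spread, with a log2 difference of 0.79 (SE 0.19, limma adjusted p = 0.0247). Cdk2 had 206, 188.6 and 193.2 with DEN and 115.7, 129.3 and 149.9 at 4 weeks in WT, without overlap (0.53, SE 0.14, limma adjusted p = 0.031). In KO livers 9 of 12 macrophage and Kupffer cell markers were called higher with DEN, and 12 of 12 were positive (median log2 difference 0.66, summed signal 5842 to 9137 with DEN and 4517 to 4989 at 4 weeks). In WT livers 0 of 12 were called, and 8 of 12 were positive (median 0.09, summed signal 6285 to 8490 with DEN and 6874 to 7421 at 4 weeks). The part of these cells in the results was not tested. Each of the 6 calls of cell cycle genes was lost without 2 to 5 of the 6 arrays of its comparison. These were KO 4-week replicate 1 or 3 or KO DEN replicate 2 for Cks2 (adjusted p up to 0.0835), the same and KO DEN replicate 3 for Cks1b (up to 0.134), KO 4-week replicate 1 or KO DEN replicate 2 for Cdkn1b (up to 0.0663), and replicate 2 or 3 of either KO group for Gmnn (up to 0.169). In WT they were WT 4-week replicate 3 and WT DEN replicates 2 and 3 for Cdt1 (adjusted p up to 0.105), and every array but WT 4-week replicate 3 for Cdk2 (up to 0.0876). The Gapdh ratio was 0.907 to 0.937 in KO livers with DEN and 1.35 to 1.70 at 4 weeks. In WT livers it was 1.02 to 1.13 with DEN and 1.13 to 2.19 at 4 weeks. With it as a covariate none of the 6 calls passed (adjusted p 0.0729 to 0.654). The log2 differences were 0.19 for Cks2, 0.41 for Gmnn, -0.30 for Cks1b and -0.56 for Cdkn1b in KO. In WT they were 0.87 for Cdt1 and 0.62 for Cdk2. Those of Cdkn1b, Cdt1 and Cdk2 were larger in size than without the covariate, and those of Cks2, Gmnn and Cks1b smaller. The ratio nearly separates the compared groups, so this covariate cannot decide whether the calls depend on it. The other tested probe set of Cks1b differed by -0.02, that of Cks2 by 0.28 and that of Cdt1 by 0.76, and none was called.

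DEN livers against saline livers gave 6 of 34 genes in KO (17.6%), beside 15.1% of all probe sets, and 1 of 34 in WT (2.94%), beside 6.54%. In KO livers Cks2 and Pcna rose, and Cdk2, Ccnd1, Mcm4 and Cdkn1b fell. In WT livers Mcm4 fell. Cdk2 in KO had 161.7, 135.6 and 202.6 with DEN and 285.6, 251.8 and 300 with saline. No DEN array reached the saline arrays, and the log2 difference was -0.71 (SE 0.14, limma adjusted p = 0.00107). Cks2 in KO had 903.6, 1150.5 and 1059.1 with DEN and 736.2, 672 and 703.2 with saline, without overlap (0.54, SE 0.11, limma adjusted p = 0.00166). Ccnd1, cyclin D1, had 225.5, 236 and 288.1 with DEN and 354, 344.7 and 388.6 with saline in KO, again without overlap (-0.52, SE 0.17, limma adjusted p = 0.0396). In WT livers, where it was not called, Ccnd1 had 194.8, 265.1 and 344.2 with DEN and 252.1, 356.9 and 297.6 with saline, and the ranges overlapped. Pcna had 723.7, 713.5 and 727.4 with DEN and 516.2, 601.3 and 564.6 with saline in KO, without overlap (0.36, SE 0.12, limma adjusted p = 0.0494). Cdkn1b had 241.3, 241.4 and 317.3 with DEN and 342.2, 331.2 and 350.2 with saline in KO, without overlap (-0.35, SE 0.11, limma adjusted p = 0.0427). Mcm4 had 113.5, 99.4 and 101.3 with DEN and 157.3, 157.7 and 138.3 with saline in KO (-0.47, SE 0.15, limma adjusted p = 0.0408), and 102.3, 76.4 and 77.4 with DEN and 163.3, 139.5 and 117.2 with saline in WT (-0.62, SE 0.15, limma adjusted p = 0.0141). Its DEN arrays were below the saline arrays in both genotypes.

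These comparisons share the saline difference described above, and 7 of 8 hepatocyte markers rose in each genotype (median log2 difference 1.02 in KO and 1.01 in WT). Of the 12 macrophage markers, 5 were called higher and 11 were positive in KO. In WT 1 was called higher and 10 were positive. The part of these markers in the results was not tested. After quantile normalization Cdk2 (-0.63, adjusted p 0.00472), Cks2 (0.53, 0.00292) and Pcna (0.37, 0.048) kept their calls in KO and Mcm4 in WT (-0.57, 0.032), while Ccnd1 (-0.46, 0.0783), Cdkn1b (-0.30, 0.0949) and Mcm4 (-0.36, 0.119) in KO did not. Cdk2 and Cks2 in KO also kept theirs without each array in turn. With the Gapdh ratio as a covariate only Cdk2 (-0.60, adjusted p 0.0305) passed among the 6, with Cks2 at 0.35 (0.0786) and Pcna at 0.09 (0.718). The ratio was 0.907 to 0.937 in KO livers with DEN and 1.21 to 1.41 with saline. As it separates these groups, a call lost with this covariate is not decided by it. With the mean of all its probe sets Cdk2 differed by -0.24 in KO and was not called (adjusted p 0.194). Mcm4 and Pcna in KO lost theirs without any 1 of the 6 arrays (adjusted p 0.0503 to 0.126 and 0.0592 to 0.184), Ccnd1 and Cdkn1b without any but KO DEN replicate 3 (up to 0.139 and 0.151), and Mcm4 in WT without WT DEN replicate 2 or 3 or WT saline replicate 1 or 2 (up to 0.102). The other tested probe set of Mcm4 moved the opposite way in KO (0.31) and by -0.33 in WT, that of Cks2 by 0.10, and both others of Ccnd1 by -0.28, and none was called.

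**Figure D4:**
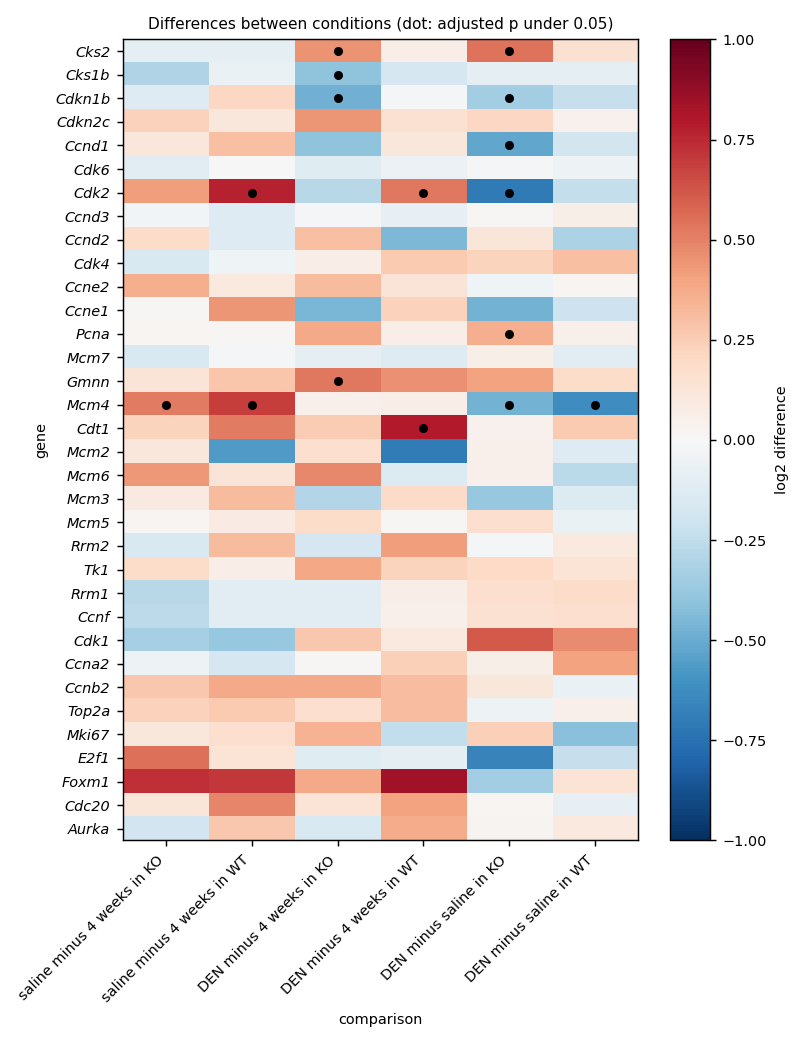
Log2 differences between conditions for the 34 tested genes, in KO and in WT livers; red is higher and blue lower in the first-named condition, and a black dot marks an adjusted p under 0.05. The dots are spread over 9 genes, with Cdk2 and Mcm4 marked in 3 and 4 columns; comparisons that share arrays are not independent.

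The 42 genes had 101 probe sets in all, of which 65 were tested. Beside the probe sets of highest mean, 5 further calls were made at 3 others. A probe set of Mcm7 with a name in _x_at, which marks probes that may bind other transcripts, rose with saline against 4 weeks by 0.54 in KO (SE 0.17) and 0.57 in WT (SE 0.17), and fell with DEN against saline in KO by 0.79 on the log2 scale (SE 0.17, limma adjusted p = 0.00225). A second Ccnd2 probe set rose with DEN against 4 weeks in KO by 0.63 (SE 0.17, limma adjusted p = 0.0289). A second Ccnf probe set fell with DEN against saline in KO, with a difference of -0.61 (SE 0.20, limma adjusted p = 0.042). Of the 18 calls above, 6 were at probe sets named in _x_at or _s_at, of Mcm4 and Cks2.

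A list of 93 other cell cycle genes, of which 91 were measured and 68 tested, gave 33 calls in 17 genes. Taking up to 4 called genes of largest absolute difference in each comparison left 25 of these calls. Of the 25 calls, 19 held with quantile normalization and 4 without each array in turn. Among those 4 were Kif22 for saline against 4 weeks in WT and Cdkn1a for DEN against 4 weeks in KO. Mcm10 and Spc25 for DEN against 4 weeks in WT made up the rest. Between genotypes at 4 weeks 3 of 68 (4.41%) were called, beside 2.26% of all probe sets. Dbf4, the activator of the Cdc7 kinase of replication origins, had 116.9, 126 and 111.3 in KO and 60.7, 79.6 and 69.3 in WT livers and rose by 0.65 (SE 0.14, limma adjusted p = 0.0162). Spc24 and Spc25, partners in the Ndc80 complex of the kinetochore, were called in opposite directions. Spc24 had 94.9, 66.5 and 85.1 in KO and 130.8, 136.7 and 135.6 in WT (-0.63, SE 0.14, limma adjusted p = 0.0223), and Spc25 had 131.4, 117.3 and 131.3 in KO and 86.2, 71.8 and 70 in WT (0.64, SE 0.16, limma adjusted p = 0.0333). A second Spc25 probe set differed by -0.05 and was not called. Among other settings, the calls of Dbf4, Spc24 and Spc25 were lost without the 6 saline arrays (adjusted p 0.0704, 0.0843 and 0.101), without the 2 arrays of high Gapdh ratio (0.0521, 0.061 and 0.178), and without 4, 4 and 5 of the 6 single arrays (up to 0.0725, 0.117 and 0.12). With saline and with DEN 0 of 68 were called between genotypes in limma, with 4 and 8 at an unadjusted p under 0.05. The share of all probe sets at that unadjusted threshold was not counted. With saline, Dbf4 ran from 117 to 127.8 in KO and from 71.8 to 88 in WT livers. Spc24 ran from 98.8 to 118.6 in KO and from 131.8 to 154.8 in WT livers with saline. Both thus kept their 4-week direction without overlap, whereas the saline ranges of Spc25 overlapped.

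Between conditions the list gave 5 of 68 in KO (7.35%, beside 9.94% of all probe sets) and 7 of 68 in WT (10.3%, beside 8.26%) for saline against 4 weeks. DEN against 4 weeks gave 5 in KO (7.35%, beside 8.24%) and 5 in WT (7.35%, beside 4.4%), and DEN against saline gave 6 in KO (8.82%, beside 15.1%) and 1 in WT (1.47%, beside 6.54%). Cdkn1a, the inhibitor p21 that p53 induces, had 306.3, 171.7 and 97.1 with DEN and 613.7, 532.9 and 542 at 4 weeks in KO livers. It fell by 1.61 on the log2 scale there (SE 0.31, limma adjusted p = 0.00441), and a second probe set was called the same way (-1.29); its difference against saline in KO was -1.03 (SE 0.31, limma adjusted p = 0.03). With the Gapdh ratio as a covariate the difference against 4 weeks was -1.0 and not called (adjusted p 0.422). The ratio separates KO livers with DEN from both other KO groups, so this covariate decides neither Cdkn1a call. The call against saline was lost under 5 of 15 other settings, among them that covariate (-0.59, adjusted p 0.409) and quantile normalization (-0.97, adjusted p 0.0529), and on leaving out any 1 of the 6 arrays other than KO DEN replicate 1 (-0.66, adjusted p 0.175 without KO DEN replicate 3). In WT livers Cdkn1a was not called for DEN against 4 weeks. Its WT signals were 387.3, 140.2 and 138 with DEN and 313.5, 557.4 and 455.8 at 4 weeks, with overlap. Mcm10, a replication initiation factor, had 1472.7, 1279.7 and 1282.4 with DEN and 868.2, 721.2 and 931 at 4 weeks in WT livers. It rose by 0.67 (SE 0.11, limma adjusted p = 0.00115), and by 0.44 in KO (SE 0.11, limma adjusted p = 0.0147), but its second tested probe set differed by -0.37 and -0.14. Mcm10 was called higher with saline against 4 weeks as well. The log2 difference was 0.50 in WT (SE 0.11, limma adjusted p = 0.00372) and 0.38 in KO (SE 0.11, limma adjusted p = 0.0272). The second probe set differed by -0.41 and -0.20 there. Spc25 rose with DEN against 4 weeks in WT by 0.88 (SE 0.16) and Kif22, a chromosome motor, by 0.70 (SE 0.16). In that comparison a second Spc25 probe set differed by 0.12 and a second Kif22 probe set by 0.13, and neither was called. Both genes lost their calls with the mean of all probe sets. Kif22 also lost its call with the Gapdh covariate (0.66, adjusted p 0.104) and without _x_at and _s_at probe sets. Kif22 rose with saline against 4 weeks in WT by 0.90. Spc25 rose in that comparison by 0.55 (SE 0.16, limma adjusted p = 0.0285), a call lost with quantile normalization (adjusted p 0.0676). A second Spc25 probe set differed by -0.12 there. Orc1, of the origin recognition complex, and Kif2c, a microtubule-depolymerizing kinesin, were called higher there too, with Orc1 at 56.8, 42.6 and 52.5 with saline and 21.5, 7.7 and 9 at 4 weeks, and Kif2c at 42.9, 40.9 and 35.7 with saline and 33.7, 1 and 8.2 at 4 weeks. Their WT means at 4 weeks, 12.7 and 14.3, lie under the filter signal of 15.5, so that the size of either difference depends on the number added. Both WT calls were lost with quantile normalization (adjusted p 0.0527 for Orc1 and 0.0646 for Kif2c). Each was also lost with the Gapdh covariate and without 5 of the 6 single arrays. Orc1 was also called higher with saline in KO, at 55.2, 91.3 and 92.2 with saline and 57.5, 28.8 and 6.6 at 4 weeks, with overlap. That call was lost with quantile normalization too (adjusted p 0.0698). Other tested probe sets of Kif22 (-0.16) and Kif2c (0.35) were not called. Kif2c and Orc1 fell with DEN against saline in KO, with Kif2c at 18.3, 19 and 13.5 with DEN and 54.1, 52.5 and 63.9 with saline, and Orc1 at 9.3, 48.6 and 22.4 with DEN and 55.2, 91.3 and 92.2 with saline. Both had DEN arrays under the filter signal, and the second Kif2c probe set differed by 0.48. Lin54 (0.65) rose and Rbl2 (-0.45), both of the DREAM repressor complex, fell with saline against 4 weeks in KO. Wee1 (0.68), a kinase that inhibits Cdk1, and Rfc4 (0.64), of the clamp loader, rose with DEN against 4 weeks in KO. Their calls were lost in 9 and 10 of 17 other settings, and each without 4 of the 6 single arrays. A second Rfc4 probe set differed by 0.15. E2f8 (1.10) rose with DEN against 4 weeks in WT, but by 0.69 (adjusted p 0.127) without WT DEN replicate 2. Pola1 (-0.65), of DNA polymerase alpha, fell with DEN against saline in KO, a call lost with quantile normalization (-0.52, adjusted p 0.0725). Spc24 fell with DEN against saline in WT (-0.57, SE 0.14, limma adjusted p = 0.0159).

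**Figure D5:**
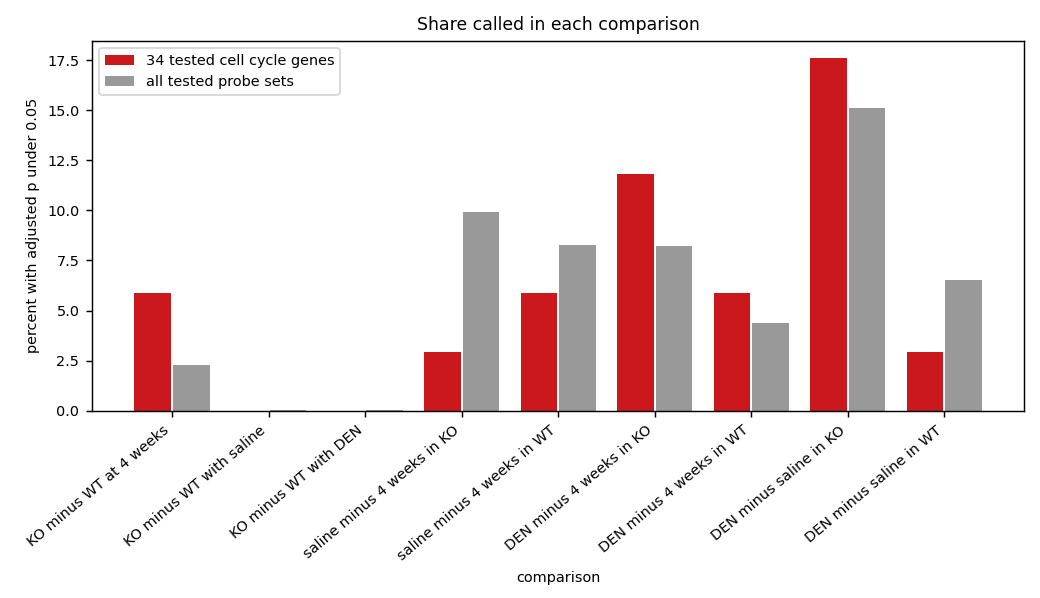
Share of the 34 tested genes (red) and of all 27022 tested probe sets (grey) with an adjusted p under 0.05 in each of 9 comparisons; bars start at 0. The share of the cell cycle genes is 5.88% beside 2.26% for KO minus WT at 4 weeks, 17.6% beside 15.1% for DEN minus saline in KO, and below the background for saline minus 4 weeks in both genotypes.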

How the data were processed

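Liver RNA of 18 samples in 6 groups was measured on Affymetrix Mouse430_2 arrays. The authors deposited 1 intensity per probe set and array, on a linear scale; per the submitters' processing notes MAS5 was used (its version: not given in the sources used here). From the deposited intensity values, 64 control probe sets were left out, 16 was added and log2 taken. Probe sets with a mean at or above the 40th percentile were kept (27022 of 45037). Tests used limma 3.58.1 under R 4.3.3 (lmFit, eBayes with an intensity trend, 1 mean per group, 12 residual and 9.19 prior degrees of freedom), two-sided, with Benjamini-Hochberg adjustment over all tested probe sets of each of 12 contrasts and a threshold of 0.05. Gene names came from the platform annotation; 34945 probe sets have 1 gene, 932 several and 9160 none. Each gene was represented by its probe set of highest mean signal. All genes of the set were named, with a fitted difference where it passed, array values for the called and for the 2 most abundant genes of each role, and up to 4 called genes of the other list per contrast; levels of uncalled genes beside these were chosen after their values were seen. Members, lists and tests were chosen with earlier results of these data known. Alternatives were other normalizations, added numbers, filters, probe set rules, weights, covariates and arrays left out. The fit was tested on simulated data.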

Additional observations from a re-analysis of the deposited data

Results flagged for a closer look

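The KO minus WT difference of Spc24, a kinetochore gene, differed between DEN and 4 weeks by the interaction test. It was higher with DEN than at 4 weeks by 0.90 in log2 (SE 0.20, limma adjusted p = 0.0381), with signals of 115.4, 114.2 and 103.3 in KO and 107.1, 72.4 and 89.7 in WT livers with DEN, and 94.9, 66.5 and 85.1 in KO and 130.8, 136.7 and 135.6 in WT livers at 4 weeks. With saline, Spc24 signals were 98.8, 118.6 and 104.7 in KO and 154.8, 134.2 and 131.8 in WT livers. They were lower in KO without overlap, as at 4 weeks, but the difference was not called. Every alternative kept the sign of the interaction (0.64 to 1.04). The call was lost in 6 of 17 other settings and without 8 of the 12 arrays left out in turn (adjusted p up to 0.0945).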

How the results depend on the processing

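Of the counts of called genes recomputed under other settings, 205 stayed within 1.5 times the reported count and 77 did not. Counts of 0 that stayed at 0 are among the 205. For KO against WT at 4 weeks the count stayed within that range in 7 of 17 other settings. For saline against 4 weeks it did so in 4 of 16 in KO and 14 of 16 in WT. For DEN against 4 weeks it did so in 12 of 17 in KO and 9 of 17 in WT. For DEN against saline it did so in 8 of 15 in KO and 14 of 15 in WT. Of the 18 calls 13 held with quantile normalization and 4 without each array in turn. Of these, 1, Cdk2 for saline against 4 weeks in WT, held under every other setting run. These 4 were Cdk2 and Mcm4 for saline against 4 weeks in WT and Cdk2 and Cks2 for DEN against saline in KO. For KO against WT at 4 weeks (2 as reported) the count was 4 with array weights, 1 with quantile or cyclic loess normalization, the mean of all probe sets or no filter, and 0 with centred medians, no trend, only the compared groups, without the 2 arrays of high Gapdh ratio or without the saline arrays. For saline against 4 weeks in KO (1) it was 3 with array weights or only the compared groups, 2 with 64 added, a filter at the 60th percentile, the Gapdh covariate or without the high-ratio arrays, and 0 with quantile or cyclic loess normalization, the mean of probe sets, no filter or no _x_at and _s_at probe sets; in WT (2) it was 4 with array weights and 1 without _x_at and _s_at. For DEN against 4 weeks in KO (4) it was 2 with the mean of probe sets or only the compared groups, 1 without a trend or without saline arrays and 0 with the Gapdh covariate; in WT (2) it was 1 with array weights, centred medians or without high-ratio arrays, and 0 with the covariate, the mean of probe sets, no trend, only the compared groups or no saline arrays. For DEN against saline in KO (6) it was 3 with centred medians, quantile normalization, no trend or no _x_at and _s_at, 2 without a filter and 1 with the covariate or the mean of probe sets; in WT (1) it was 0 without _x_at and _s_at. For the interaction of DEN against 4 weeks (0) it was 1 with a filter at the 60th percentile or no _x_at and _s_at. Leaving out 1 array at a time gave 0 to 2, 0 to 1, 2 to 2, 0 to 4, 0 to 2, 2 to 5 and 0 to 1 in these comparisons up to DEN against saline in WT, and 0 to 1 in that interaction. Without _x_at and _s_at probe sets Mcm4 (DEN against saline in KO) turned to 0.31 and Kif22 (saline against 4 weeks in WT) to -0.16, as other probe sets then stood for them. Of the gene differences 624 kept their call, 324 lost it and 2 changed sign. The KO minus WT counts with saline and with DEN stayed at 0 in every setting run. Centring moved the median of all probe sets from 0.07 to -0.05 for saline against 4 weeks in KO, from 0.04 to -0.09 for KO against WT with saline, from -0.09 to 0.02 for DEN against saline in KO and from -0.05 to 0.13 for its interaction, and the members' median relative to it by 0.01 or less.

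Same-numbered arrays did not deviate together (correlations of deviations -0.10 to 0.12, best with their own number in 29 of 90 comparisons). These deviations thus gave no sign of a pairing by number, and pairing of another kind was not tested. With the replicate block the count was 2 for saline against 4 weeks in KO and 1 for the interaction of DEN against 4 weeks, and the other counts stayed within 1.5 times.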
